A study of Homo sapiens with 27 samples.

Results

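The genes described here encode subunits of ESCRT-I: the paralogs VPS37A, VPS37B and VPS37C, the core subunits TSG101 and VPS28, and the alternative subunits UBAP1, MVB12A and MVB12B. They were taken by gene symbol, 8 of the 10470 genes measured. All 8 were measured in every library, and 5 of them (VPS37B, VPS37C, TSG101, VPS28 and UBAP1) had the mean of at least 10 transcripts in each 1000000 (TPM) over 27 libraries that was required for testing. VPS37A, MVB12A and MVB12B lay under that mean, and their values come from the same model without the requirement. A further paralog, VPS37D, and the related genes UBAP1L and UMAD1 were not among the genes measured. Sums and shares of VPS37 RNA given here thus leave VPS37D out.

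ESCRT-I recognises ubiquitinated cargo on endosomes and passes it towards multivesicular bodies for degradation in lysosomes, and it also acts in the final separation of dividing cells and in virus budding. Each complex holds TSG101, VPS28, a VPS37 protein and either an MVB12 protein or UBAP1. The VPS37 paralogs occupy the same position in the complex, and ESCRT-I proteins are known to lose stability when their partners are missing, which RNA measurements do not show.

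RNA of DLD1 cells, an established human colorectal carcinoma line, was read with an amplicon panel 72 h after small interfering RNAs (siRNAs) had been transfected. The study asked how the loss of VPS37 paralogs, alone and together, changes transcription. Groups of 3 replicates received an siRNA against VPS37A (siVPS37A), VPS37B (siVPS37B) or VPS37C (siVPS37C), pairs of these (siVPS37AB, siVPS37AC, siVPS37BC), all 3 (siVPS37ABC), control siRNAs (siCTRL) or nothing (NT). A paralog was targeted by the same single siRNA sequence throughout, so that an effect of that sequence on other genes cannot be told apart from an effect of the paralog's loss. The amount of each siRNA per group is not given in the sources used here.

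The deposited TPM values are whole reads divided by a length and a library factor, so the reads were recovered, and the libraries held between 5252496 and 14252058 of them. The members ranged from TSG101 with 506 to 1342 reads per library down to VPS37A with 3 to 152. Of 12 colorectal epithelial markers, 9 were measured and summed to between 7873 and 12630 TPM. Leukocyte and endothelial markers, of which 2 of 6 and 1 of 5 were measured, summed to no more than 9.70 and 7.37 TPM. None of 7 fibroblast markers was among the genes measured. Within siVPS37A the libraries resembled each other least, and replicate 3 had a mean correlation of -0.0222 with the other replicates of its group after removal of gene means, against 0.629 for the siVPS37ABC library closest to its own group. VPS37A was depleted in that siVPS37A library too.

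Of the control siRNAs, sequences are known for a pair named NC3 and NC4. They are shown because siCTRL is the baseline of nearly all comparisons, although the labels do not say which control siRNAs made up siCTRL. The sample titles number siCTRL in the same way as the paralog siRNAs and name neither NC3 nor NC4. A further numbered negative control has no sequence in the sources used here. The seeds of NC3 and NC4 may therefore not be those of siCTRL, whose own seed was not tested. The antisense strands are written 5′ to 3′ with bases 2 to 8, the seed, in capitals and the DNA overhang as tt.
NC3 antisense: cUACGAUAgaccggucguatt
NC4 antisense: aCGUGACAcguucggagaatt
The match of the NC3 seed, TATCGTA, was found in none of the longest coding transcripts of the 8 members, read on the sense strand, and in 2.65% of those of 10398 measured genes. The NC4 match, TGTCACG, was also in none of the members and in 7.34% of measured genes. With siCTRL set against NT, 0 of the 8 members were called by limma at an adjusted p of 0.05, where 3.17% of all tested genes were called, and none of the 8 had an unadjusted p under 0.05. The log2 changes of the members in siCTRL ran from -0.18 for VPS28 to 0.28 ± 0.16 for VPS37A (SE, adjusted p = 0.374).

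In siCTRL cells VPS37B was the most abundant of the measured VPS37 paralogs and VPS37A the least. VPS37B had 40.1, 45.9 and 53.2 TPM, VPS37C 17.6, 15.7 and 19.2 TPM, and VPS37A 4.78, 6.06 and 6.57 TPM in the 3 siCTRL libraries, so the paralogs did not overlap. Of the summed VPS37 level, VPS37B made up 66.5% ± 1.94, VPS37C 25.2% ± 2.55 and VPS37A 8.31% ± 0.653 (SD, n = 3). Across all members the order of mean levels in siCTRL was TSG101 (97.6 TPM), VPS37B (46.4 TPM), VPS28 (44.2 TPM), UBAP1 (26.8 TPM), VPS37C (17.5 TPM), VPS37A (5.80 TPM), MVB12A (4.57 TPM) and MVB12B (3.60 TPM). Among neighbours in that order, VPS37B overlapped with VPS28, VPS37A with MVB12A, and MVB12A with MVB12B. TPM corrects for transcript length, whereas the panel reads an amplicon per gene, so differences in amplification between genes remain in this order and in the shares. Both also depend on the length factor. In reads over the 3 siCTRL libraries, UBAP1 (719) and VPS37C (619) exceeded VPS28 (549), and MVB12B (227) exceeded MVB12A (74). The paralogs kept their order in reads, with 1654 for VPS37B, 619 for VPS37C and 344 for VPS37A.

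The intended depletion was present in all 12 combinations of a paralog and a group given its siRNA, all called by limma. Against siCTRL, 1.83% of all tested genes were called in siVPS37A, 1.72% in siVPS37B, 0.496% in siVPS37C, 14.8% in siVPS37AB, 4.4% in siVPS37AC, 1.29% in siVPS37BC and 21.9% in siVPS37ABC. No library of a depleted group overlapped with any library in which the same paralog was not targeted. Relative to siCTRL, the mean percentage left was highest for VPS37C in each group given its siRNA with another, and the order of VPS37A and VPS37B differed between siVPS37AB and siVPS37ABC.

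VPS37A fell to 0.278, 0.317 and 0.436 TPM in the siVPS37A libraries, against 4.78, 6.06 and 6.57 TPM in siCTRL. In percent of the siCTRL mean the level left was 5.92 ± 1.41 in siVPS37A and 7.27 ± 4.02 in siVPS37ABC, and of the pairs siVPS37AB kept 5.54 ± 2.74 and siVPS37AC kept 9.11 ± 1.12 (SD, n = 3 each). These levels rest on few reads: 26 over the 3 siVPS37A libraries together (95% Poisson interval 17.0 to 38.1), against 344 in siCTRL (309 to 382). These counts are not corrected for depth. The libraries held 9540452, 11976529 and 8075252 reads in siVPS37A, and 7599552, 6089671 and 8582254 in siCTRL. Replicate 1 of siVPS37AB and of siVPS37ABC had 3 reads each. The log2 change on the log2(TPM + 1) scale, which understates the fall of a gene this low, was -2.33 ± 0.16 in siVPS37A (SE, adjusted p = 6.53e-10) and lay between -2.36 and -2.15 in the combined knockdowns.

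VPS37B fell to 1.61, 2.09 and 0.964 TPM in the siVPS37B libraries, against 40.1, 45.9 and 53.2 TPM in siCTRL. The log2 change was -4.23 ± 0.20 (SE, adjusted p = 8.46e-14), and -4.898 to -2.504 over the alternative settings. The log2(TPM + 1) scale understates this fall too and, less strongly, that of VPS37C. Log2 changes of the paralogs are thus not directly comparable. The VPS37B level left was 3.35% ± 1.21 of the siCTRL mean in siVPS37B and 7.42% ± 1.36 in siVPS37ABC, and of the pairs siVPS37AB kept 4.94% ± 0.55 and siVPS37BC kept 5.47% ± 2.21 (SD, n = 3 each). All 3 siVPS37ABC libraries, with 2.82, 3.43 and 4.08 TPM, lay above all 3 siVPS37B libraries.

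VPS37C fell to 3.98, 3.83 and 3.52 TPM in the siVPS37C libraries, against 17.6, 15.7 and 19.2 TPM in siCTRL. The log2 change was -1.95 ± 0.21 (SE, adjusted p = 5.68e-06). The level left was 21.6% ± 1.36 of the siCTRL mean in siVPS37C and 22.7% ± 2.84 in siVPS37ABC, and of the pairs siVPS37AC kept 23.0% ± 4.64 and siVPS37BC kept 28.7% ± 2.67 (SD, n = 3 each). More VPS37C RNA was thus left, relative to siCTRL, than RNA of the other paralogs.

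**Figure D1:**
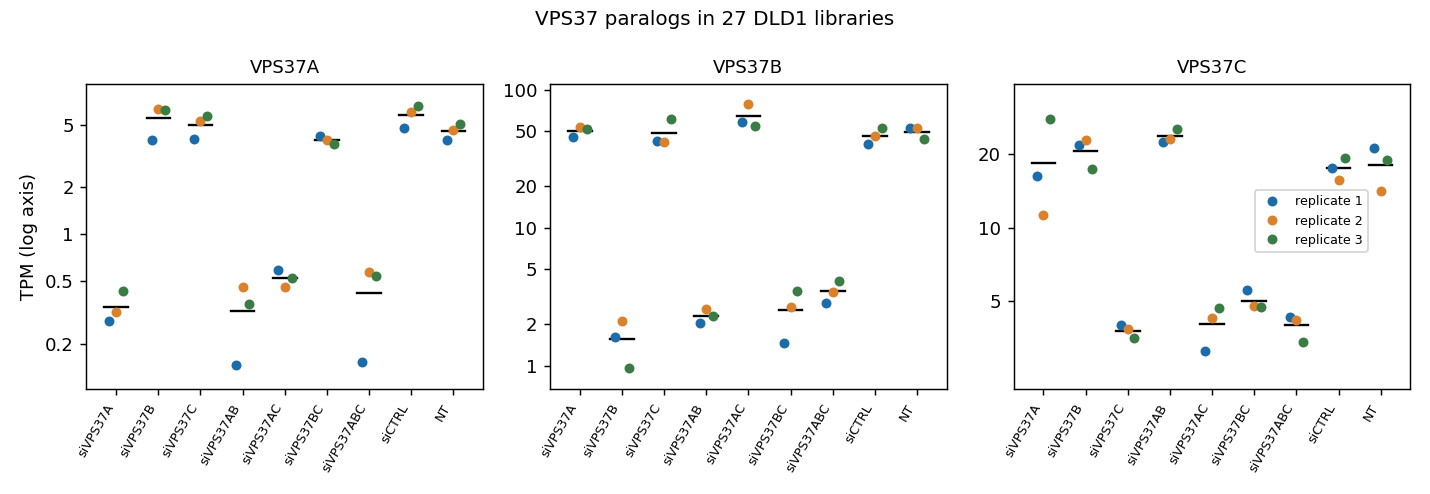
Level of each VPS37 paralog in TPM on a log axis, by group, with a point for each library coloured by replicate and a bar at the mean of 3 libraries. Groups given the paralog's own siRNA lie below all other groups, at 5.54 to 9.11% of the siCTRL mean for VPS37A, 3.35 to 7.42% for VPS37B and 21.6 to 28.7% for VPS37C.

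Whether a paralog was depleted less in a combined knockdown than alone was compared in 9 pairs of groups. Only VPS37B in siVPS37ABC differed, with a log2 change of 0.81 ± 0.20 over siVPS37B (SE, adjusted p = 0.00478). VPS37B had 162 reads over the 3 siVPS37ABC libraries (95% Poisson interval 138 to 189), against 55 in siVPS37B (41.4 to 71.6). These counts and intervals are not corrected for depth, so their gap overstates the difference. The libraries held 7452130, 8228867 and 14252058 reads in siVPS37ABC, and 6421332, 8928964 and 5252496 in siVPS37B. In TPM, which corrects for depth, the VPS37B means were 3.442 in siVPS37ABC and 1.555 in siVPS37B. The adjusted p ran from 0.00108 to 0.157 over the alternative settings, being 0.157 with a pseudocount of 8 and 0.0667 without the replicate 3 libraries. Library number, the figure that closes each library's description, was 80, 84 and 88 in siVPS37ABC and 81, 85 and 603 in siVPS37B. The groups thus shared no library number, and their difference can hold one between library numbers. The other 8 log2 changes of the targeted paralog ran from -0.03 for VPS37A in siVPS37AB to 0.45 ± 0.20 for VPS37B in siVPS37BC (SE, adjusted p = 0.238). Over all tested genes, the share called was 2.09% for siVPS37AB, 0.496% for siVPS37AC and 9.89% for siVPS37ABC against siVPS37A. It was 12.4% for siVPS37AB, 3.11% for siVPS37BC and 23.7% for siVPS37ABC against siVPS37B. Against siVPS37C it was 0.186% for siVPS37AC, 0.031% for siVPS37BC and 17.8% for siVPS37ABC.

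Summed over the 3 measured paralogs, VPS37 RNA was lowest in siVPS37ABC, with 7.29, 8.21 and 8.02 TPM, against 62.4, 67.7 and 78.9 TPM in siCTRL. This was 11.2% ± 0.694 of the siCTRL mean (SD, n = 3), and siVPS37BC kept 16.6% ± 0.522. The sum stood at 98.7% ± 13.9 in siVPS37A, 39.8% ± 4.83 in siVPS37B, 81.9% ± 16.2 in siVPS37C, 37.6% ± 2.49 in siVPS37AB and 98.6% ± 18.8 in siVPS37AC. Thus all 4 groups given the VPS37B siRNA had a lower sum than the other groups, with no overlap of libraries. What was left also differed in kind. VPS37C made up 90.1% ± 1.38 of the sum in siVPS37AB, and VPS37B made up 93.2% ± 1.70 in siVPS37AC. In siVPS37BC the sum held 34.8% ± 3.20 VPS37A, 21.7% ± 8.22 VPS37B and 43.4% ± 5.16 VPS37C. These sums and shares depend on the length factor. Reads without it gave another order in siVPS37BC: over its 3 libraries VPS37A had 264, VPS37C 195 and VPS37B 94.

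**Figure D2:**
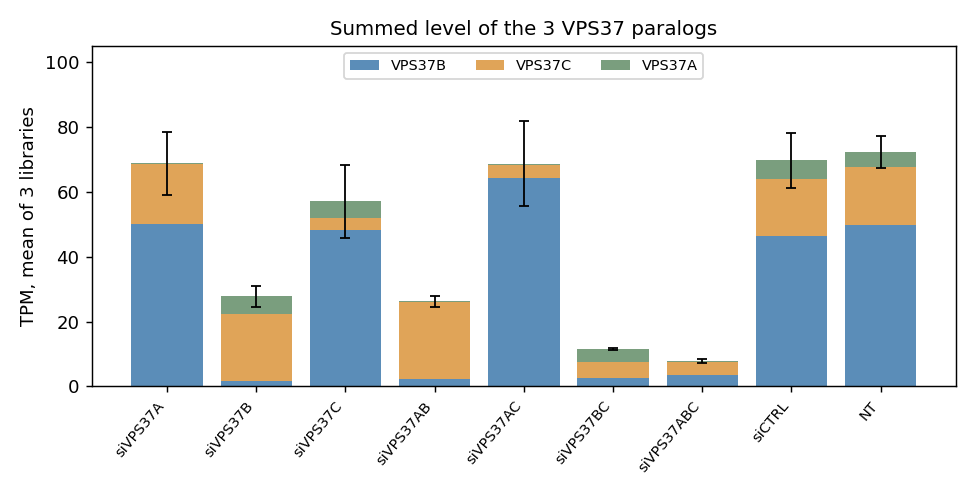
Mean TPM of VPS37B, VPS37C and VPS37A stacked for each group, with the SD of the summed level over 3 libraries as an error bar. The sum is 7.84 TPM in siVPS37ABC and 11.6 TPM in siVPS37BC, against 69.7 TPM in siCTRL.

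Of the 44 combinations of a member and a knockdown in which it was not targeted, 0 were called against siCTRL by limma. At an unadjusted p under 0.05 there were 8, and the smallest adjusted p was 0.0507. The share of all tested genes under that unadjusted p was not counted. The 44 combinations also share genes and the siCTRL libraries, so the 8 cannot be read as an excess. The count of 0 called depends on the fit. With the replicate number as a block it was 2, namely TSG101 and UBAP1 in siVPS37AB, and with NT in place of siCTRL it was 4. The median log2 change of the untargeted members, taking all of them whether or not they passed the mean of 10 TPM, was 0.39 in siVPS37AB (6 members, median of all tested genes 0.07), 0.16 in siVPS37ABC (5 members, all genes 0.03), 0.11 in siVPS37AC (6 members, all genes 0.07), 0.06 in siVPS37BC (6 members, all genes 0.02), 0.06 in siVPS37A (7 members, all genes 0.05), 0.16 in siVPS37B (7 members, all genes -0.02) and -0.17 in siVPS37C (7 members, all genes 0.00).

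**Figure D3:**
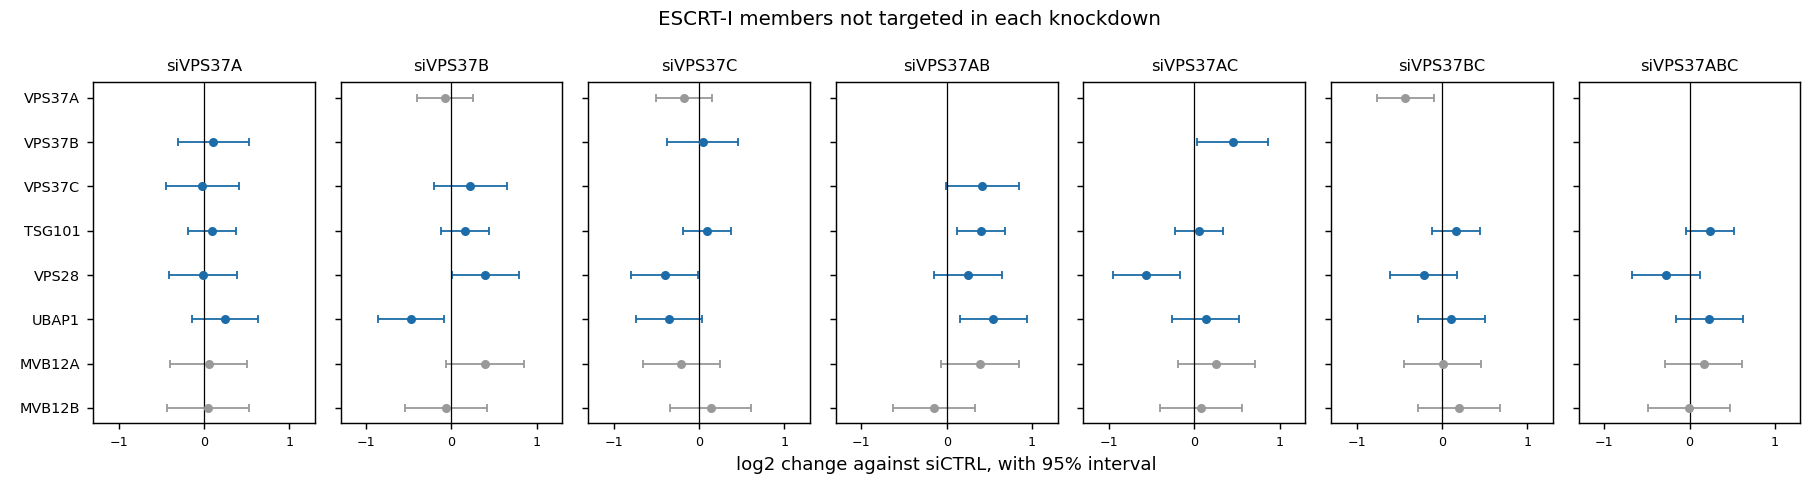
Log2 change against siCTRL of each ESCRT-I member in the knockdowns that did not target it, with 95% intervals from the model. Members under a mean of 10 TPM are grey. Some intervals leave out 0, such as TSG101 and UBAP1 in siVPS37AB, and no adjusted p is under 0.05.

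No knockdown changed an untargeted paralog by this test. VPS37B, the major paralog, had 58.8, 79.0 and 54.7 TPM in siVPS37AC, against 40.1, 45.9 and 53.2 TPM in siCTRL. All siVPS37AC libraries lay above all siCTRL libraries, and the log2 change was 0.45 ± 0.20 (SE, adjusted p = 0.24), with a 95% interval for the fold of 1.02 to 1.83. How many of all tested genes also had groups without overlap was not counted. A lack of overlap is therefore only a description, here and for the members below. VPS37C had 22.4, 23.1 and 25.4 TPM in siVPS37AB, against 17.6, 15.7 and 19.2 TPM in siCTRL, again without overlap. Its log2 change was 0.41 ± 0.21 (SE, adjusted p = 0.194), with an interval for the fold of 0.991 to 1.79. VPS37A had 4.28, 4.03 and 3.78 TPM in siVPS37BC, against 4.78, 6.06 and 6.57 TPM in siCTRL, also without overlap but lower. Its log2 change was -0.43 ± 0.16 (SE, adjusted p = 0.247), with an interval for the fold of 0.592 to 0.934. The values of the remaining paralog were thus above siCTRL for VPS37B and VPS37C and below it for VPS37A, which in NT had 3.98, 4.64 and 5.09 TPM.

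More precision came from averaging the effect of a siRNA over the 8 transfected groups, 4 given it and 4 not. Over all tested genes, 29.1% were called for the average VPS37A siRNA effect, 16.2% for VPS37B and 10.5% for VPS37C. VPS37B was called as higher with the VPS37A siRNA (log2 change 0.32 ± 0.10, SE, adjusted p = 0.0205) and with the VPS37C siRNA (0.31 ± 0.10, adjusted p = 0.0465). The second lost its call under 4 of 9 alternative settings, with adjusted p from 0.0149 to 0.185, and in 18 of 27 omissions of a library. In both averages, however, 4 of the 8 groups were themselves depleted of VPS37B, so the average holds the depth of depletion as well.

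In the 4 transfected groups not given the paralog's own siRNA, an average chosen after these values were seen, no untargeted paralog passed the test. VPS37B had a log2 change of 0.26 ± 0.14 with the VPS37A siRNA (SE, adjusted p = 0.351, 4.24% of all genes called) and 0.19 ± 0.14 with the VPS37C siRNA (adjusted p = 0.684, 1.78% of all genes). VPS37C had 0.33 ± 0.15 with the VPS37B siRNA (adjusted p = 0.197, 6.67% of all genes) and 0.09 ± 0.15 with the VPS37A siRNA (adjusted p = 0.743, 15.4% of all genes). VPS37A had -0.16 ± 0.11 with the VPS37B siRNA (adjusted p = 0.525, 1.95% of all genes) and -0.26 ± 0.11 with the VPS37C siRNA (adjusted p = 0.193, 5.61% of all genes). The call of VPS37C with the VPS37B siRNA depended on a single library: without siVPS37A replicate 3, which had 27.8 TPM of VPS37C beside 16.2 and 11.3 TPM in the other siVPS37A libraries, it was 0.49 with an adjusted p of 0.0151. Over the alternative settings of that value, and over the single omissions, the adjusted p ran from 0.0192 to 0.286 and from 0.0151 to 0.489.

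UBAP1, the subunit that directs ESCRT-I to endosomal sorting, was higher with the VPS37A siRNA. The 12 libraries given it ranged from 24.2 TPM to 51.1 TPM with a median of 32.5 TPM, and the 12 transfected libraries without it from 17.6 TPM to 32.0 TPM with a median of 24.0 TPM. The ranges overlapped, yet all 12 libraries with the siRNA were above the median of those without. The average log2 change was 0.47 ± 0.09 (SE, adjusted p = 0.000505), and the adjusted p stayed between 5.64e-05 and 0.00177 over 9 alternative settings and at or under 0.00139 when any library was left out. Within replicates it was 0.31, 0.49 and 0.61.

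The difference was above 0 in each of the 4 backgrounds, and largest between siVPS37AB and siVPS37B. UBAP1 had 35.2, 34.4 and 51.1 TPM in siVPS37AB, against 17.6, 18.3 and 21.2 TPM in siVPS37B. No library overlapped, and the log2 change was 1.02 ± 0.19 (SE, adjusted p = 0.000675). The log2 difference was 0.25 for siVPS37A against siCTRL, 0.48 for siVPS37AC against siVPS37C and 0.12 for siVPS37ABC against siVPS37BC. Averaged over the transfected groups without the VPS37B siRNA, it was not called by limma (0.37 ± 0.13, SE, adjusted p = 0.122, 4.24% of all genes called). Over those without the VPS37C siRNA it was called (0.64 ± 0.13, adjusted p = 0.00182, 15.4% of all genes). Both averages were chosen after values were seen. A test of whether siVPS37AB departed from the sum of its single knockdowns gave 0.77 ± 0.27 for UBAP1 (SE, unadjusted p = 0.00772, adjusted p = 0.481), and 0% of all tested genes were called in it. UBAP1 had 23.4, 20.2 and 19.0 TPM in siVPS37C, and in siVPS37B and siVPS37C alone every library lay below those of siCTRL, with 27.4, 24.7 and 28.5 TPM. The knockdowns had log2 changes of -0.48 ± 0.19 (SE, adjusted p = 0.202) and -0.35 ± 0.19 (adjusted p = 0.68). In siVPS37AB it lay above siCTRL, by 0.55 ± 0.19 (adjusted p = 0.0518), which the replicate block called (adjusted p = 0.0208) and the omission of siVPS37AB replicate 3, with 51.1 TPM, brought to 0.37 (adjusted p = 0.274). The adjusted p of that change ran from 0.0166 to 0.102 over the alternative settings. siVPS37ABC also exceeded siVPS37B, by 0.71 ± 0.19 (adjusted p = 0.00767), and siVPS37C, by 0.58 ± 0.19 (adjusted p = 0.0324, 0.00608 to 0.055 over the alternative settings). Of all tested genes, 23.7% and 17.8% were called in these comparisons. Both also differ by a siRNA other than that against VPS37A, so they do not isolate it. Without the VPS37A siRNA, siVPS37BC already lay above siVPS37B by 0.59 ± 0.19 (adjusted p = 0.0868) and above siVPS37C by 0.46 ± 0.19 (adjusted p = 0.992).

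VPS28, the core subunit that links ESCRT-I to ESCRT-II, was lower with the VPS37C siRNA. It ranged from 26.8 TPM to 43.7 TPM with a median of 33.2 TPM in the 12 libraries given that siRNA, and from 36.8 TPM to 67.2 TPM with a median of 46.5 TPM in the 12 transfected libraries without it. All 12 libraries with the siRNA were below the median of those without. The average log2 change was -0.53 ± 0.10 (SE, adjusted p = 0.00055), and the adjusted p stayed between 8.46e-05 and 0.000886 over 9 alternative settings and at or under 0.00153 when any library was left out.

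The difference was below 0 in each of the 4 backgrounds. It was -0.40 for siVPS37C against siCTRL, -0.55 for siVPS37AC against siVPS37A, -0.61 for siVPS37BC against siVPS37B and -0.53 for siVPS37ABC against siVPS37AB. Within replicates it was -0.51, -0.43 and -0.64. Averaged over the transfected groups without the VPS37B siRNA, it was not called by limma (-0.48 ± 0.14, SE, adjusted p = 0.0733, 1.78% of all genes called). Over those without the VPS37A siRNA it was called (-0.51 ± 0.14, adjusted p = 0.0281, 5.61% of all genes). Both averages were chosen after values were seen. Single comparisons with siCTRL did not pass: VPS28 had 30.5, 28.4 and 29.9 TPM in siVPS37AC, against 45.3, 43.5 and 43.7 TPM in siCTRL, without overlap and with a log2 change of -0.56 ± 0.19 (SE, adjusted p = 0.0994, 0.00638 to 0.11 over the alternative settings). VPS28 was counted from 120 to 320 reads per library.

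VPS28 was also called as higher with the VPS37B siRNA, but not in every replicate. The 12 libraries given it ranged from 26.8 TPM to 67.2 TPM with a median of 45.0 TPM, and the 12 without it from 28.4 TPM to 60.5 TPM with a median of 35.7 TPM. The average log2 change was 0.28 ± 0.10 (SE, adjusted p = 0.0451). Within replicates it was 0.48 and 0.49 in replicates 1 and 2 and -0.12 in replicate 3. Without the replicate 3 libraries it was 0.49 with an adjusted p of 0.000113, while with library number, the figure that closes each library's description, as a covariate it was 0.11 with an adjusted p of 0.532. It lost its call in 19 of 27 omissions of a library, with adjusted p from 0.0101 to 0.0942. siVPS37ABC had 40.5, 43.7 and 26.8 TPM of VPS28, against 67.2, 63.5 and 46.8 TPM in siVPS37B, a log2 change of -0.68 ± 0.19 (adjusted p = 0.0121, 0.000961 to 0.058 over the alternative settings). Both groups were given the VPS37B siRNA and differ by those against VPS37A and VPS37C. Of all tested genes, 23.7% were called between them.

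**Figure D4:**
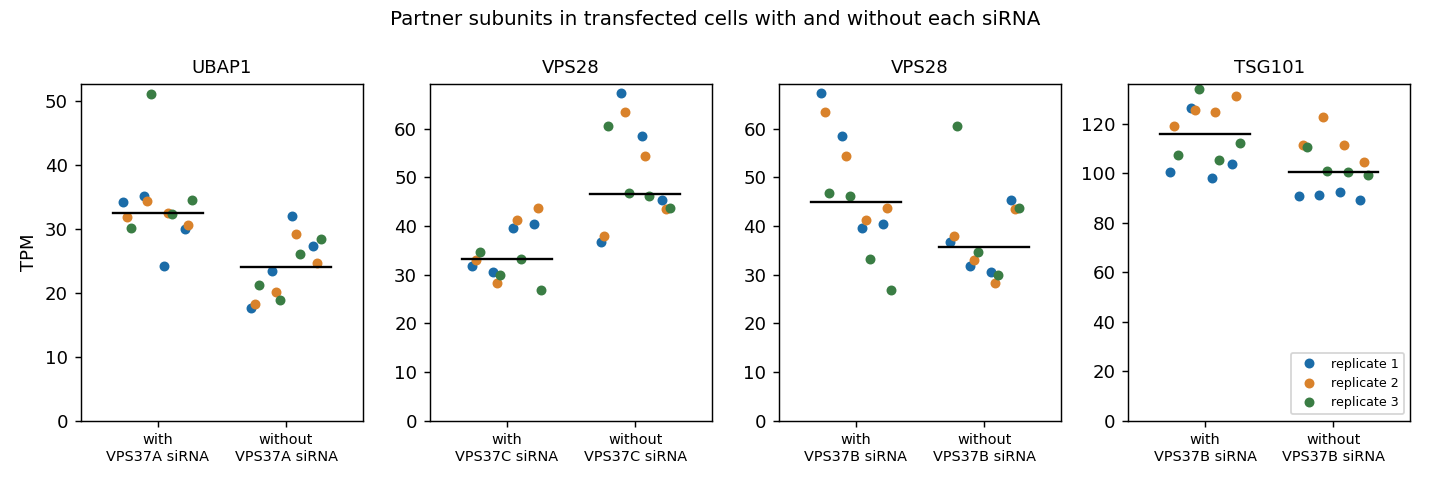
TPM of UBAP1, VPS28 and TSG101 in the 12 transfected libraries given the named siRNA and the 12 not given it, coloured by replicate, with a bar at the median. UBAP1 has a median of 32.5 TPM with the VPS37A siRNA, against 24.0 TPM without. VPS28 has a median of 33.2 TPM with the VPS37C siRNA, against 46.5 TPM without.

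TSG101, the subunit that binds ubiquitin and viral late-domain motifs, was the most abundant member. Over all 27 libraries it ranged from 78.3 TPM to 134 TPM. It had 126, 126 and 134 TPM in siVPS37AB, against 89.1, 104 and 99.2 TPM in siCTRL, without overlap. The log2 change was 0.40 ± 0.14 (SE, adjusted p = 0.0507), which 4 of 11 alternative settings called: the replicate block (adjusted p = 0.00446), NT as the baseline (0.00756), a mean of at least 50 TPM (0.0486) and a pseudocount of 8 (0.0493). Over all 11 the adjusted p ran up to 0.181. On average over the transfected groups TSG101 had a log2 change of 0.18 ± 0.07 with the VPS37B siRNA (SE, adjusted p = 0.0781, with the replicate block 0.00932). It was above 0 within each replicate, at 0.23, 0.15 and 0.15.

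MVB12A and MVB12B, the accessory subunits that bind ubiquitin and compete with UBAP1 for the same place, stayed low throughout. MVB12A ranged from 3.22 to 7.27 TPM on 18 to 57 reads, and MVB12B from 2.28 to 6.98 TPM on 43 to 160 reads. Their groups overlapped with siCTRL, other than MVB12A in siVPS37AB (6.35, 6.07 and 6.25 TPM, against 5.28, 4.87 and 3.56 TPM in siCTRL) and in siVPS37B (5.34, 7.22 and 6.26 TPM). Neither was called in any knockdown or average effect. The highest MVB12B value, 6.98 TPM, was in siVPS37C replicate 3, where the other siVPS37C libraries had 2.74 and 3.17 TPM.

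**Figure D5:**
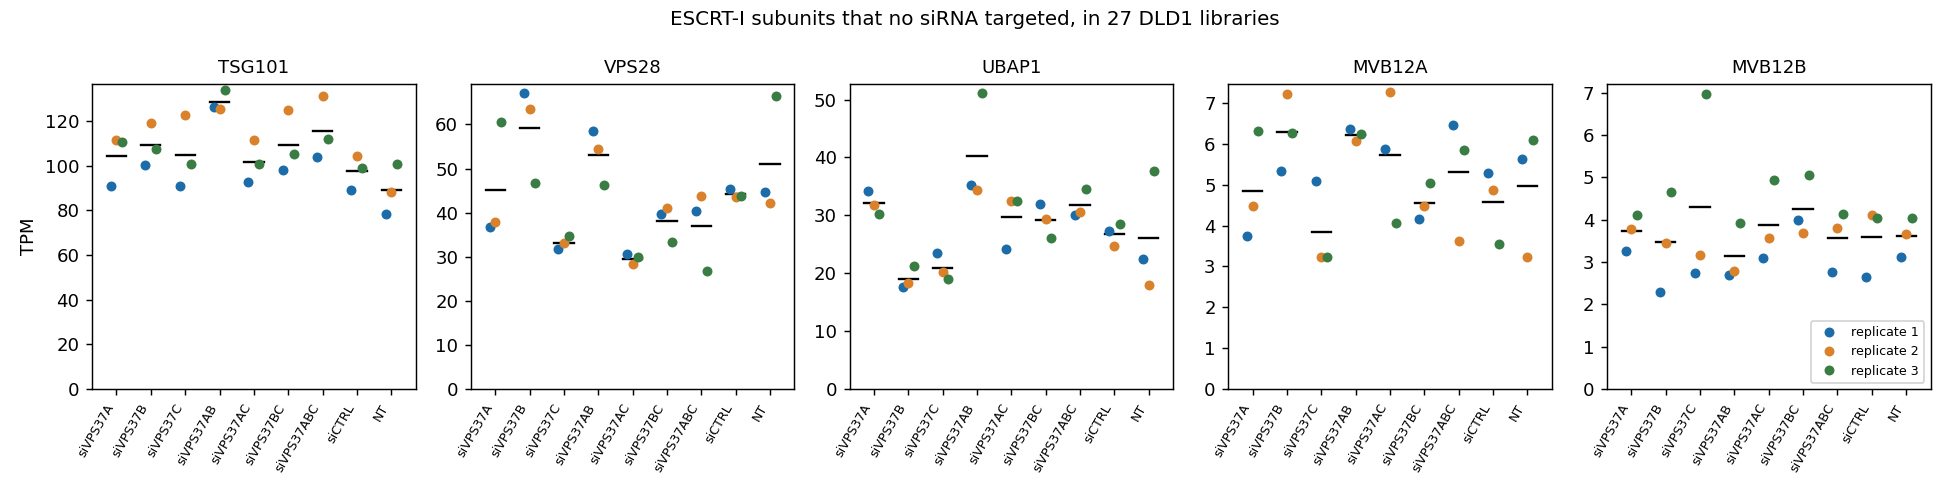
TPM of the ESCRT-I subunits that no siRNA targeted, by group, with a point for each library coloured by replicate and a bar at the mean of 3 libraries. UBAP1 is lowest in siVPS37B and highest in siVPS37AB, and VPS28 is lowest in siVPS37AC. NT replicate 3 stands above the other NT libraries with 66.5 TPM of VPS28 and 37.7 TPM of UBAP1.

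In the rest of the ESCRT machinery, 34 of 37 measured genes were tested and 8 were called in siVPS37ABC against siCTRL, where 21.9% of all tested genes were called. Of the ESCRT-0 proteins and related cargo adaptors, 2 of 8 were higher and 2 lower. HGS, the ESCRT-0 subunit that recruits TSG101, had 57.4, 78.0 and 84.4 TPM in siVPS37ABC, against 41.2, 52.2 and 51.2 TPM in siCTRL (log2 change 0.58 ± 0.20, SE, adjusted p = 0.0366). The adaptor TOM1 rose by 0.54 ± 0.13 (adjusted p = 0.00286) and was also called in siVPS37A and siVPS37AB, although siVPS37ABC, with 43.9, 43.9 and 51.1 TPM, was near NT, with 43.5, 39.9 and 44.2 TPM. Its relative TOM1L2 fell by 0.38 (SE 0.12, adjusted p = 0.0181) and the adaptor GGA2 fell by 0.49 (SE 0.17, adjusted p = 0.0378). HGS, TOM1 and GGA2 lost their call with NT in place of siCTRL, as did CHMP7 below. HGS also lost it without the replicate 3 libraries, and CHMP7 with library number as a covariate. GGA2 lost its call under 4 of 10 alternative settings, TOM1L2 under 1 of 10 and TOM1 in siVPS37A under 4 of 10. Of 27 single omissions, 5 removed the call of GGA2, 4 that of HGS, 3 that of TOM1L2 and 3 that of TOM1 in siVPS37A.

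Of the ESCRT-II subunits, 0 of 3 were called in any of the 7 knockdowns, where the share of all tested genes called was 0.496 to 21.9%. In the averages over transfected groups, 1 of 3 was called with the VPS37C siRNA, where 10.5% of all tested genes were, and 1 of 3 with the VPS37B siRNA, where 16.2% were: VPS25 was lower with the VPS37C siRNA (log2 change -0.56 ± 0.10, SE, adjusted p = 0.000245) and VPS36 higher with the VPS37B siRNA (0.23 ± 0.07, adjusted p = 0.021). In yeast, Vps36 is the subunit that binds Vps28. Of 15 ESCRT-III and VPS4 genes, which encode the filaments that cut the membrane and their ATPases, 3 were higher and 0 lower in siVPS37ABC. CHMP2B had 377, 314 and 298 TPM in siVPS37ABC, against 213, 215 and 176 TPM in siCTRL (log2 change 0.71 ± 0.15, SE, adjusted p = 0.00129). CHMP1B rose by 0.64 ± 0.17 (adjusted p = 0.0073, and 0.0517 without siCTRL replicate 1) and CHMP7 by 0.62 ± 0.16 (adjusted p = 0.00537). Both were also called in siVPS37AB.

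Of 8 tested genes for partners and regulators of ESCRT-I, only PDCD6 was called, in 5 of 7 knockdowns and as higher in each. The share of all tested genes called in those 5 was 0.496% in siVPS37C, 14.8% in siVPS37AB, 4.4% in siVPS37AC, 1.29% in siVPS37BC and 21.9% in siVPS37ABC, so that 1 of 8 in siVPS37ABC is below the share of all genes. PDCD6 encodes the calcium-binding protein ALG-2, which contacts ESCRT-I through VPS37B and VPS37C. It had 183, 164 and 158 TPM in siVPS37ABC, against 70.2, 54.1 and 69.7 TPM in siCTRL (log2 change 1.37 ± 0.14, SE, adjusted p = 4.35e-08). However, siCTRL itself lay far below NT, which had 227, 228 and 241 TPM (log2 change of siCTRL over NT -1.84 ± 0.14, adjusted p = 2.09e-09). Against NT the siVPS37ABC change was -0.46 (adjusted p = 0.0129), so the direction depends on the baseline.

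The genes whose log2 level followed a member most closely over the 27 libraries are given as a description, since libraries share treatments and replicate numbers. For VPS37A they were GNG5 (r = 0.927), ESCO2 (r = 0.922) and HIST1H2BD (r = 0.887). GNG5 averaged 266 TPM in siVPS37A, with 307 TPM in siVPS37AB, 305 TPM in siVPS37AC and, in siVPS37ABC, 312 TPM, against 470 TPM in siCTRL. It stood at 496 TPM in siVPS37B, 523 TPM in siVPS37C and 468 TPM in siVPS37BC, which carried no VPS37A siRNA.

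VPS37C was followed by FRMD8 (r = 0.903), NR2F6 (r = 0.894) and RRM2 (r = 0.887), and VPS28 by FAM89B (r = 0.909), NR2F6 (r = 0.883) and LAMB2 (r = 0.88). The shared gene, NR2F6, averaged 21.6 TPM in siVPS37C, with 19.6 TPM in siVPS37AC, 20.8 TPM in siVPS37BC and, in siVPS37ABC, 20.6 TPM, against 38.7 TPM in siCTRL. The closest genes to VPS37B were NDUFA8 (r = 0.83), CCSAP (r = 0.825) and SRSF10 (r = 0.824). TSG101 was followed by C1orf43 (r = 0.858), NBR1 (r = 0.857) and HYOU1 (r = 0.818), UBAP1 by SARAF (r = 0.802), MGAT2 (r = 0.769) and TNFRSF10A (r = 0.767), and MVB12B by SETD2 (r = 0.851), STAG1 (r = 0.849) and DNAJC2 (r = 0.842). No gene followed MVB12A above r = 0.616, reached by DCK, with CCDC9 and HOOK2 at 0.615.

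The paralogs' transcripts share no exact run longer than 18 bases (VPS37B with VPS37C), 17 (VPS37A with VPS37B) and 14 (VPS37A with VPS37C) in GENCODE v29. Exons of VPS37A overlap those of CNOT7 on the other strand, and exons of UBAP1 those of KIF24. Whether the counting used strand is not given in the sources used here, so reads of these overlapping pairs may not be separated.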

How the data were processed

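The authors deposited a table of 10470 genes in 27 libraries whose columns each sum to 1000000, used here as TPM. HTSeq 0.6.0, DESeq2 1.18.1 and the build hg19 appear, with no role given, in the submitters' processing notes. The deposited TPM of all 10470 genes were whole reads times a library factor over a gene length (largest deviation from a whole number 6.11e-10). Of 10244 such lengths, 84.2% lay within 10% of an annotated transcript length. Amplicon reads without molecular identifiers are not independent molecules, so Poisson intervals cover counting error only.

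One limma 3.58.1 model (R 4.3.3) of log2(TPM + 1), with a mean per group and 18 residual degrees of freedom, was fitted to the 6458 genes averaging 10 TPM or more and adjusted by Benjamini-Hochberg within each comparison at 0.05. It was tested on simulated data with independent noise in each gene and library. The simulation held no effect shared by libraries of the same replicate or library number, so it does not cover such effects. The p-values measure the spread between libraries the labels call biological replicates. The replicate number opens each sample title and was taken as a possible batch. Residuals of same-numbered libraries correlated at 0.355 on average, against -0.175 for pairs of other numbers. Since group means were removed, the second value largely follows from the first and is no separate evidence. The main model leaves that block out, and a fit with it is given where it changes a call. Library number was not balanced over the groups. It was 88, 88 and 603 in siCTRL and NT, 81, 85 and 89 or 603 in the single knockdowns, and 80, 84 and 88 or 89 in the combined ones. Comparisons between groups can thus hold differences between library numbers.

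The genes and lists were chosen with earlier results of these data known. All 8 members were named. Of other ESCRT lists, up to 4 genes called in siVPS37ABC or in 2 or more knockdowns were named, and for each member the 3 genes of highest Pearson correlation. VPS25 and VPS36 were named after their values were seen. Python 3.11.15 with scipy 1.17.1 and matplotlib 3.10.9 was used for reads, sequences and figures. The alternatives are listed in the closing section.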

Additional observations from a re-analysis of the deposited data

How the results depend on the processing

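All 12 depletions kept their call under every alternative in which they were tested. The 0 calls among untargeted members became 2 with the replicate block, 3 with a term for library number, 2 with a pseudocount of 8, 4 against NT, 1 when each comparison was fitted on its own groups, 3 without the replicate 3 libraries, and 0 to 2 when single libraries were left out. At a mean of at least 50 TPM, where TSG101 alone of the members was tested, it was 1 (TSG101 in siVPS37AB, adjusted p = 0.0486). It stayed 0 with no filter, a pseudocount of 0.1, quantile normalization and voom on recovered reads. The 5 average effects became 6 with the replicate block (TSG101 with the VPS37B siRNA added), 4 each with library number, a pseudocount of 8, quantile normalization and fits on the own groups, 3 with voom and 3 to 5 with single omissions. There were also 5 without the replicate 3 libraries, but VPS37C with the VPS37B siRNA was gained and VPS37B with the VPS37C siRNA lost. The 1 difference between combined and single depletion became 0 with a pseudocount of 8 and 0 without the replicate 3 libraries. Omissions left 5 to 8 of the other ESCRT genes called in siVPS37ABC. Voom and the omission of replicate 3 were chosen after seeing the data.

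Of 60 single results, 40 kept their call under all alternatives. The replicate block changed the call of TSG101 and UBAP1 in siVPS37AB and of TSG101 with the VPS37B siRNA, and of no other single result. Directions that turned, apart from PDCD6 against NT (-0.46), belonged to changes that were not called, the largest of them 0.33 ± 0.21 for VPS37C in siVPS37BC against siVPS37C (SE). VPS37C against siVPS37C turned to -0.15 in siVPS37AC, -0.029 in siVPS37BC and -0.154 in siVPS37ABC with library number, to -0.03 and -0.01 in siVPS37AC and siVPS37ABC with quantile normalization, to -0.016 in siVPS37ABC with voom and to -0.078 in siVPS37AC without replicate 3. VPS37C with the VPS37A siRNA turned to -0.16, -0.006 and -0.126 with library number, quantile normalization and without replicate 3. With single omissions, VPS37A spanned -0.104 to 0.069 in siVPS37AB and -0.011 to 0.214 in siVPS37ABC against siVPS37A, VPS37C -0.038 to 0.196 in siVPS37AC against siVPS37C, and VPS37C with the VPS37A siRNA -0.076 to 0.231. The causes were not tested. The library number term moved the median of all genes in siVPS37ABC to 0.11, against 0.03.

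Over all genes, 1417 were called in siVPS37ABC, against 2137 with the block, 2114 with no filter and 549 at a mean of at least 50 TPM. Comparisons by edgeR and DESeq2, planned for whole counts, were not run since the table holds TPM. Depth limits VPS37A, MVB12A and MVB12B, which rest on 3 to 160 reads per library.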

Other observations

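Beyond the ESCRT genes named above, averages over the transfected groups called further ESCRT-III and VPS4 genes, chosen after their values were seen. With the VPS37B siRNA 3 of 15 were higher (CHMP1B, CHMP2B and CHMP7) and 1 lower, where 16.2% of all tested genes were called. The lower one, CHMP4C, a subunit of the checkpoint that delays the last step of cell division, had a log2 change of -0.69 ± 0.12 (SE, adjusted p = 0.000183). With the VPS37A siRNA 3 of 15 were higher (CHMP1B, CHMP5 and VPS4B) and 0 lower, where 29.1% of all tested genes were called, and VPS4B, an ATPase that takes ESCRT-III filaments apart, had 0.37 ± 0.10 (adjusted p = 0.00675). With the VPS37C siRNA 0 of 15 were higher and 1 lower, where 10.5% of all tested genes were called, and this was CHMP2A with -0.32 ± 0.07 (adjusted p = 0.00295). The p-values are from limma, and whether these follow the loss of the paralog or another effect of the same siRNA sequence cannot be told apart.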
